A study of Mus musculus with 4 samples.

Results

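Ribosome assembly factors are the proteins that build ribosomes without staying in them, and 50 of their genes were followed here, Nmd3 and Lsg1 among them. They were chosen by name from the count table: nucleolar and cytoplasmic assembly factors, including those that act when the ribosomal protein Rpl10 joins the large (60S) subunit. All 50 were among the 12486 genes of the table, and all 50 passed the filter on low counts among the 11853 genes tested. The study asked which genes depend on Zfp574, a zinc-finger protein of the nucleus. PRO-seq labels RNA at the position of engaged RNA polymerase in isolated nuclei, so a count per gene reflects ongoing transcription and not the amount of mRNA or protein. Control and depletion each had 2 libraries.

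All libraries came from AID-Zfp574 mouse embryonic stem cells (mESC), cultured without feeders in serum and LIF and derived from an originally haploid line. Zfp574 carried an auxin-inducible degron at its N terminus, and the parental line expressed OsTir1, the plant F-box protein that recruits tagged proteins for degradation when auxin is present, together with ARF16, from an EF1a promoter. The control group was collected at 0 h, with no IAA (the auxin indole-3-acetic acid), and the depletion group after 6 h of 500 µM IAA. Both groups carried the tag and OsTir1, so the comparison holds the genotype constant and varies the IAA. No library of IAA-treated cells without the tag was used here, and an effect of IAA itself cannot be told apart from that of depletion.

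Ribosome assembly starts in the nucleolus, where small nucleolar ribonucleoproteins (snoRNPs) guide the modification of ribosomal RNA and 2 large particles form, the precursors of the 40S and the 60S subunit. The pre-60S particle leaves the nucleus with the adaptor Nmd3 bound to the exportin Xpo1. In the cytoplasm the GTPase Lsg1 releases Nmd3 as Rpl10 is loaded, and Sbds then helps to evict Eif6, which until then keeps the subunits apart. Fast-dividing cells such as embryonic stem cells depend on a high output of this pathway.

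The control libraries held 3298864 and 3616429 counts in total, and the more deeply sequenced depletion libraries 6045216 and 5670904. Of 8 stem cell markers, all 8 were in the table, between 9.02 and 1766.8 CPM (the count scaled to the size of the library), and of 8 markers of other cell types 4 were in the table, at 0.301 to 13.2 CPM with Pax6 highest. At an adjusted p under 0.05 in edgeR's quasi-likelihood test, 166 of all genes were lower and 132 higher, a split that became 202 and 64 with library totals and 698 and 49 with size factors recovered from the authors' own table, of unresolved origin. The RNA of Zfp574 does not check the depletion, because the degron acts on the protein. It was transcribed at 24.0 and 35.5 CPM at 0 h and at 32.8 and 39.0 CPM at 6 h (adjusted p = 0.406). Rpl10, which is not one of the 50 genes, was at 235 and 254 CPM in the controls and at 102 and 95.6 CPM after depletion, a log2 fold change of -1.30 (standard error, SE, 0.07).

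Transcription of the assembly factors changed little after 6 h, and in these bulk samples fewer transcribing cells and less transcription per cell cannot be told apart. By the quasi-likelihood test of edgeR, with p-values adjusted (Benjamini-Hochberg) over all genes tested, 3 of the 50 fell at an adjusted p under 0.05, Wdr75, Bysl and Nop56, or 6% of the members against 1.4% of all genes tested. None rose, against 1.11% of all genes, and at an unadjusted p under 0.05 the counts were 9 lower and 0 higher, against 7.66% lower and 8.53% higher among all genes. The count of 3 moved with the processing. It was 10 with the recovered size factors, where 5.89% of all genes were lower, 5 with library totals (1.7%), 4 in limma-voom (1.43%) and 0 in DESeq2 with its own size factors (0.515%). With 1 library left out, a condition rests on 1 library, and the calls did not all hold, as given below by gene. In these fits the log2 fold change was -0.92 to -0.63 for Wdr75, -0.49 to -0.39 for Bysl and -0.26 to -0.17 for Nop56. None of the 50 members fell by 2-fold or more, a threshold passed together with the adjusted p by 0.321% of all genes. The 95% interval of the log2 fold change lay within 2-fold in either direction for 49 of the 50 members. The exception was Wdr75.

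**Figure D1:**
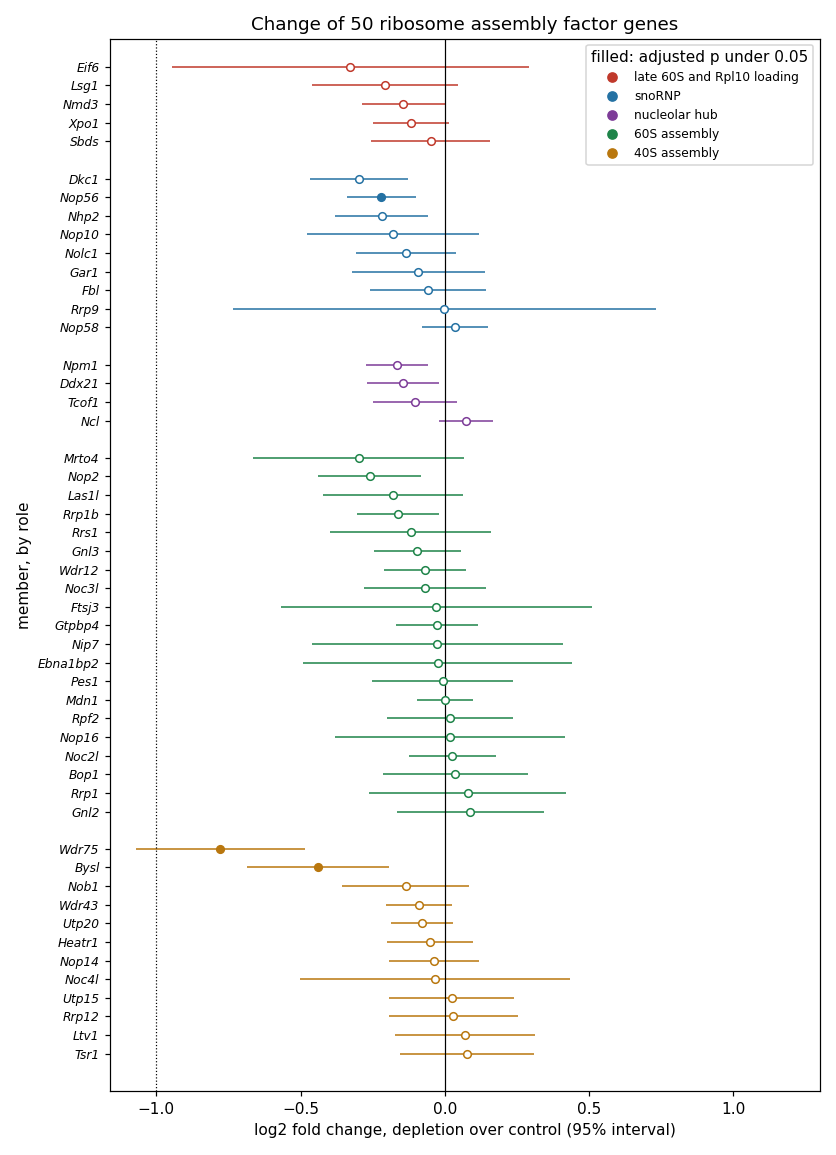
Log2 fold change of each of the 50 assembly factor genes, depletion over control on TMM scaling, on the horizontal axis, with genes on the vertical axis ordered by role. Points are edgeR estimates, bars are 95% intervals, filled points have an adjusted p under 0.05, and the dotted line marks a 2-fold fall. The filled points are Nop56, Wdr75 and Bysl, and 37 of 50 points lie below 0, a count that was 43 with library totals and all 50 with the recovered size factors.

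Most of the changes were small and below 0. The log2 fold change was below 0 in 37 of 50 members (74%) against 50.6% of all genes tested, a count that was 37 with median-ratio scaling, 43 with library totals and 50 with the recovered size factors, where the median of all genes itself moved to -0.11. The member median was -0.07 against -0.0021 for all genes. The difference between both medians, -0.07, was the same to 2 decimals under these 4 scalings. Such scalings shift all genes almost alike, so they could hardly change it. It was -0.05 with the trend on gene length removed, -0.10 at a mean count of at least 100, and -0.09 to -0.07 with 1 library left out. The lower and upper quartiles were -0.16 and 0.0015, and the range was -0.78 to 0.09. In 23 members (46%) neither depletion library reached the lower of the controls, against 22.9% of all genes. In 1 member (2%), Ncl, both lay above the higher control, against 23.4% of all genes, and in 26 the groups overlapped. The median and the counts describe the list, which was given no test of its own.

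The members took 0.619% and 0.612% of all counts at 0 h, and 0.573% and 0.576% at 6 h. Setting each depletion library against each control library, 34 to 38 members were lower, with medians of -0.11 to -0.07. These pairings reuse the same libraries and are not separate tests. Between replicates, control 2 was lower than control 1 in 31 members, and depletion 2 lower than depletion 1 in 25. Within a condition the members differed between replicates by a median of 0.07 in the controls and 0.08 after depletion on the log2 scale, sign disregarded. The median of the signed differences between replicates was -0.017 and 0.0012.

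**Figure D2:**
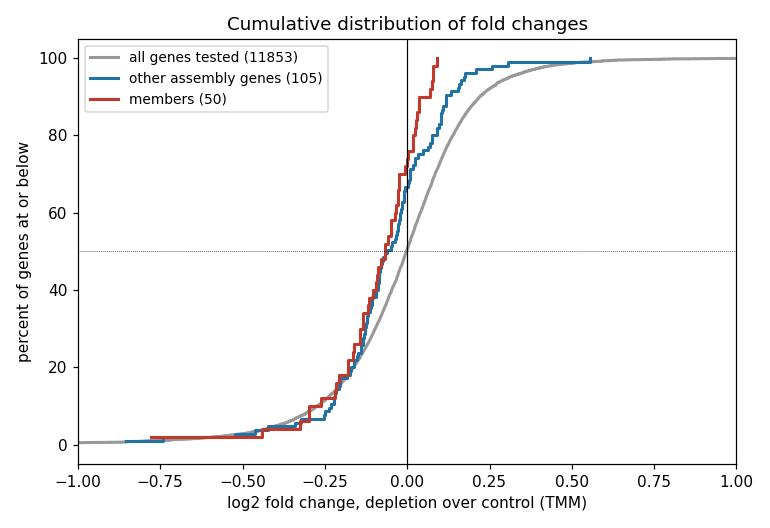
Cumulative percentage of genes (vertical axis) at or below each log2 fold change of depletion over control (horizontal axis, TMM scaling) for the 50 members, the 105 other assembly genes and all 11853 genes tested, shown from -1 to 1. At 0 the member curve stands at 74% and that of all genes at 50.6%, and the highest member lies at 0.09.

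The late 60S factors, which act at the export of the particle or around the loading of Rpl10, were all slightly below 0, where 50.6% of all genes were below 0. In edgeR 0 of 5 passed the test, and 0 of 5 were lower at an unadjusted p under 0.05 (7.66% of all genes). DESeq2 with its own size factors and limma-voom also called 0 of the 5. Of 14 other late 60S and Rpl10 loading genes, listed outside the members, 7 were below 0, with a median of -0.0017. Nmd3 and Lsg1 act directly at the loading of Rpl10, and the bases before their start sites are shown to place both genes. They are RefSeq sequences of build GRCm38.p6, cut where the GENCODE gene begins, with capitals at the motifs found by the search described further on.
Nmd3 (chr3:69721805-69721984, plus strand): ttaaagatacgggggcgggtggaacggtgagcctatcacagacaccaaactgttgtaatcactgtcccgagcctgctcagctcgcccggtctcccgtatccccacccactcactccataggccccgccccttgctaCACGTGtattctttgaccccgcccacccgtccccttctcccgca
Lsg1 (chr16:30587593-30587839, minus strand): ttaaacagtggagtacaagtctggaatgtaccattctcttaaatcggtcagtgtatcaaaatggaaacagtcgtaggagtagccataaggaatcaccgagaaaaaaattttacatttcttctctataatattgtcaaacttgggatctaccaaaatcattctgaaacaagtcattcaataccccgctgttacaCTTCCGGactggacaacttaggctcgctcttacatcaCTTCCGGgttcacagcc
The capitals mark CACGTG, the E-box, in Nmd3, and CTTCCGG, the reverse complement of the ETS site CCGGAAG, in Lsg1.

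Nmd3, the export adaptor (ENSMUSG00000027787, mm10 chromosome 3, 69721985 to 69756373), had 469 and 533 counts at 0 h and 808 and 694 at 6 h, or 141 and 145 CPM against 136 and 124 CPM once library size was taken into account. Both depletion libraries were below both controls, by little, and the log2 fold change was -0.14 (SE 0.07, 95% interval -0.29 to 0.00083, adjusted p = 0.313). With the recovered size factors it was -0.25 and the adjusted p 0.0415.

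Lsg1, the GTPase that frees Nmd3 (ENSMUSG00000022538, chromosome 16, 30560494 to 30587592), had 109 and 129 counts at 0 h and 177 and 164 at 6 h. On the CPM scale these were 32.8 and 35.2 against 29.7 and 29.2. The groups did not overlap, and the log2 fold change was -0.21 (SE 0.12, 95% interval -0.46 to 0.05, adjusted p = 0.433).

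Xpo1, the general nuclear export receptor, was the most even of these genes in the controls, at 175 and 174 CPM, and lay at 157 and 165 CPM after depletion. Its groups did not overlap, and the log2 fold change was -0.12 (SE 0.06, adjusted p = 0.385). Sbds, the gene mutated in most patients with Shwachman-Diamond syndrome, was at 56.2 and 66.6 CPM in the controls and at 61.1 and 57.8 CPM after depletion. The depletion libraries lay between the controls, and the log2 fold change of -0.05 (SE 0.10) became 0.083 without control replicate 2. Eif6, the anti-association factor, rested on 28 and 16 counts at 0 h against 32 and 26 at 6 h, or 8.41 and 4.37 CPM against 5.38 and 4.63 CPM. Its controls differed more from each other than from the depletion libraries, and its log2 fold change of -0.33 (SE 0.30, 95% interval -0.95 to 0.29) turned to 0.20 without control replicate 1.

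**Figure D3:**
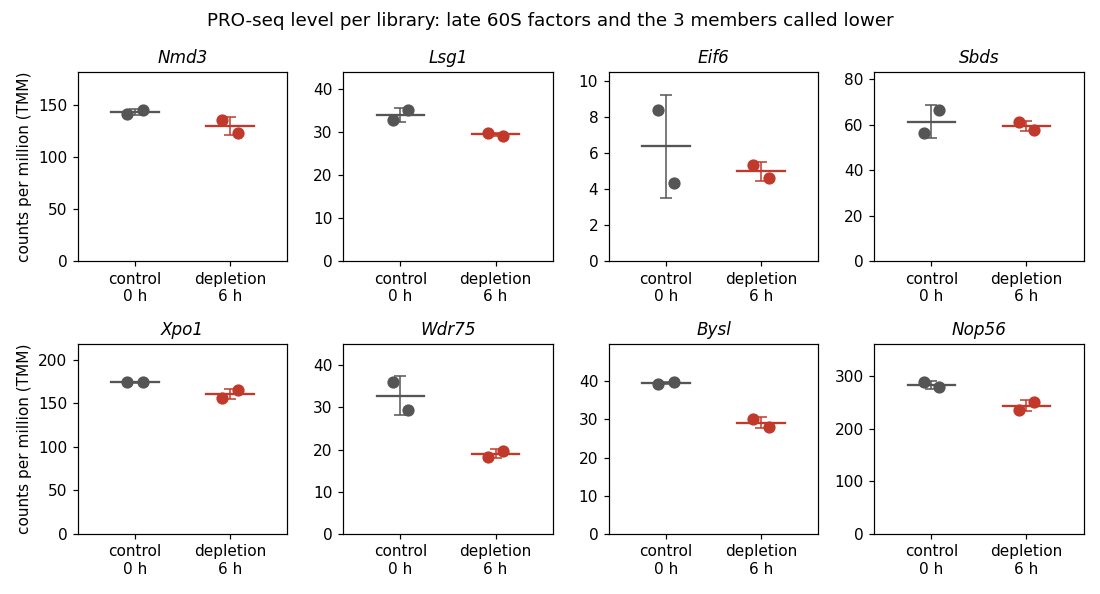
CPM on TMM scaling (vertical axes, each from 0) in each control library at 0 h and each depletion library at 6 h, for the 5 late 60S factors and the 3 members that passed the test. Points are libraries, the long lines are means and the bars are 1 SD over n = 2. The groups of Eif6 and Sbds overlap, while those of Wdr75, Bysl and Nop56 are apart, with Wdr75 at 36.1 and 29.5 CPM in the controls and 18.3 and 19.8 CPM after depletion.

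Among the 40S assembly factors, 2 of 12 fell, Wdr75 and Bysl, where 1.4% of all genes fell, and the median of the group was -0.04. Of 49 other 40S assembly genes, listed outside the members, 0 fell, and their median was -0.03. Wdr75 is a subunit of UtpA, the complex that binds nascent ribosomal RNA first and is also needed for its transcription. Bysl, the homologue of yeast Enp1, is carried by the pre-40S particle from the nucleolus to the cytoplasm. The bases before their start sites, and those before Nop56, are shown because these are the genes that passed the test.
Wdr75 (chr1:45794916-45795165, plus strand): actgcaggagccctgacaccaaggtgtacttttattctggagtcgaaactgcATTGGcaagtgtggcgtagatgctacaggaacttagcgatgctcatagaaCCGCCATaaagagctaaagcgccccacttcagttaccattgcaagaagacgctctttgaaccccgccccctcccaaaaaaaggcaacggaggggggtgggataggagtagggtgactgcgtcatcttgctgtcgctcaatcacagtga
Bysl (chr17:47611493-47611742, minus strand): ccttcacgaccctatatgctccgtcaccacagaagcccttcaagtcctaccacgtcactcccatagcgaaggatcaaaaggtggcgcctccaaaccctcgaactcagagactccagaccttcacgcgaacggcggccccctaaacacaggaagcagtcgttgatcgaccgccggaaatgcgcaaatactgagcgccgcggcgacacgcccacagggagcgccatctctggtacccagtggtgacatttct
Nop56 (chr2:130274162-130274411, plus strand): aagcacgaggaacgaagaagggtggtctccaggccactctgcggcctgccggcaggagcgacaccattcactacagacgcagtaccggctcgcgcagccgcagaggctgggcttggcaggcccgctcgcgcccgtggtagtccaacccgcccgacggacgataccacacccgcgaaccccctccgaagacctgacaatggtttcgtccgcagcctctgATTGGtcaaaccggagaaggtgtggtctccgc
Capitals mark CCGCCAT, the reverse complement of the YY1 site ATGGCGG, in Wdr75, and ATTGG, the reverse complement of the CCAAT box, in Wdr75 and Nop56. No motif searched was found in the window of Bysl.

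Wdr75 (ENSMUSG00000025995, chromosome 1, 45795166 to 45823619) had the lowest log2 fold change of the members. It had 120 and 108 counts at 0 h and, in the deeper libraries of 6 h, 109 and 111. Mean levels were 32.8 ± 4.66 CPM (SD, n = 2) and 19.0 ± 1.02 CPM. Both depletion libraries were well below both controls, at 58.3% of the control level by the fitted change. This is a log2 fold change of -0.78 (SE 0.14, 95% interval -1.07 to -0.49, adjusted p = 0.00115), and 1.00% of all genes tested ranked at or below it. The call was lost in DESeq2 with its own size factors (adjusted p = 0.101) and without depletion replicate 1 (adjusted p = 0.0574), with fold changes of -0.78 and -0.72.

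Bysl (ENSMUSG00000023988, chromosome 17, 47599331 to 47611492) had 131 and 146 counts at 0 h and 180 and 158 at 6 h. Mean levels were 39.6 ± 0.338 CPM (SD, n = 2) and 29.2 ± 1.5 CPM. The groups did not overlap, and the log2 fold change of -0.44 (SE 0.12) had an adjusted p of 0.0438, close to the threshold. It lost its call without any of the 4 libraries in turn (adjusted p = 0.0928 to 0.320), in DESeq2 with its own size factors (0.988) and with the trend on gene length removed (0.0942). Bysl starts next to Med20, a Mediator subunit gene on the opposite strand. Med20 was at 26.7 and 23.7 CPM in the controls and at 23.2 and 20.5 CPM after depletion, a log2 fold change of -0.20 (SE 0.15, adjusted p = 0.530).

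The other 10 genes of the 40S group did not pass the test. Nob1, the endonuclease that makes the final cut of 18S ribosomal RNA, was lowest of these at -0.14 (SE 0.11), followed by the UtpA subunit Wdr43 (-0.09), Utp20 (-0.08), the UtpA subunit Heatr1 (-0.05), Nop14 (-0.04) and its partner Noc4l (-0.03). Utp15 (0.03), Rrp12 (0.03), the pre-40S factor Ltv1 (0.07) and Tsr1 (0.08) were above 0. Tsr1, which resembles a GTPase and sits on the late pre-40S particle, was at 40.9 and 37.1 CPM in the controls and at 39.98 and 42.2 CPM after depletion. Its groups overlapped, and the sign turned to -0.026 with the recovered size factors. The UtpA complex, laid out after these values were seen, had 6 genes in the table with Utp4 and Nol11 included. Of these, 5 were below 0 (50.6% of all genes) and Wdr75 alone passed the test, the other 5 lying between -0.14 and 0.03.

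Of the 9 snoRNP genes 1 fell, Nop56, where 1.4% of all genes fell. The median of the group was -0.14, with 8 below 0, against 50.6% of all genes. Nop56 (ENSMUSG00000027405, chromosome 2, 130274430 to 130279313) is a core protein of the box C/D snoRNPs, which guide ribose methylation. It had 962 and 1021 counts at 0 h and 1407 and 1411 at 6 h. Mean levels were 284 ± 7.39 CPM (SD, n = 2) and 244 ± 10.4 CPM. Both depletion libraries were lower, and the log2 fold change was -0.22 (SE 0.06, adjusted p = 0.0385). It kept its call without control replicate 2 but not without control replicate 1 (adjusted p = 0.125), depletion replicate 1 (0.398) or depletion replicate 2 (0.169). The call was also lost in DESeq2 with its own size factors (0.751) and with the length trend removed (0.194).

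Its partner Nop58, the other scaffold of the box C/D core, was at 331 and 320 CPM in the controls and at 325 and 343 CPM after depletion. The groups overlapped, with a log2 fold change of 0.04 (SE 0.06) that was -0.066 with the recovered size factors. Fbl, the methyltransferase of the same particle, was at -0.06 (SE 0.10). The difference between Nop56 and its partners was not tested.

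The H/ACA snoRNPs guide pseudouridylation, and all 4 of their core genes were below 0 (50.6% of all genes), with a median of -0.20. However, 0 of 4 passed the test, and 2 of 4 were lower at an unadjusted p under 0.05, as were 7.66% of all genes. Dkc1, the pseudouridine synthase mutated in X-linked dyskeratosis congenita, was at 100.4 and 100.2 CPM in the controls and at 86.7 and 76.4 CPM after depletion. Its controls were nearly equal and both depletion libraries lower, with a log2 fold change of -0.30 (SE 0.08). The adjusted p of 0.0513 was the lowest among the 47 members that were not called. It passed the threshold in limma-voom (0.0498), in edgeR's likelihood ratio test (0.0292), with library totals (0.0271) and with the recovered size factors (0.0016), and had an adjusted p of 0.982 in DESeq2 with its own size factors.

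Nhp2 was at 102 and 99.6 CPM in the controls and at 88.9 and 84.0 CPM after depletion, a log2 fold change of -0.22 (SE 0.08, adjusted p = 0.149). Nop10, the smallest protein of the core, was at 26.1 and 22.9 CPM against 22.0 and 21.2 CPM, with a log2 fold change of -0.18 (SE 0.15). In both genes the groups did not overlap. Gar1, the remaining core gene, was at -0.09 (SE 0.11), and Nolc1, the snoRNP chaperone also called Nopp140, at -0.14 (SE 0.08). Rrp9, a protein of the U3 snoRNP, rested on few counts (3.69 CPM in the controls), and its 95% interval of -0.73 to 0.73 was the widest among the members.

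The nucleolar hub proteins hold the nucleolus together and couple ribosomal RNA synthesis to processing, and 0 of 4 passed the test, with 2 of 4 lower at an unadjusted p under 0.05 (7.66% of all genes). Npm1, nucleophosmin, was at 416 and 407 CPM in the controls and at 369 and 365 CPM after depletion. The replicates lay close together and the groups were apart, with a log2 fold change of -0.17 (SE 0.05, adjusted p = 0.0912). It passed the threshold with library totals (0.0383) and with the recovered size factors (0.00503). Ncl, nucleolin, was at 796 and 786 CPM against 819 and 847 CPM, so that both depletion libraries were higher. Its log2 fold change was 0.07 (SE 0.05, adjusted p = 0.455) and turned to -0.028 with the recovered size factors. Ddx21, an RNA helicase, was at -0.14 (SE 0.06; adjusted p = 0.0242 with the recovered size factors) and Tcof1, treacle, at -0.10 (SE 0.07).

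Of the 20 genes of 60S assembly none passed the test in edgeR, limma-voom or DESeq2 with its own size factors, 2 were lower at an unadjusted p under 0.05 (7.66% of all genes), and the median of the group was -0.03. With the recovered size factors 2 passed, Nop2 (adjusted p = 0.00939) and Rrp1b (0.0273). Mrto4, a placeholder that occupies the site of the stalk protein Rplp0, was lowest at 16.2 and 16.1 CPM in the controls and 13.6 and 12.6 CPM after depletion. Its groups did not overlap, but the low counts left a log2 fold change of -0.30 with an SE of 0.18 (adjusted p = 0.435). Nop2, a methyltransferase of 28S ribosomal RNA, was at -0.26 (SE 0.09, adjusted p = 0.115) and Rrp1b at -0.16 (SE 0.07, adjusted p = 0.237). Gnl2, a GTPase of the nucleolar pre-60S particle, was highest, at 31.6 and 33.0 CPM in the controls and 36.8 and 31.9 CPM after depletion. These overlapped, and the log2 fold change of 0.09 (SE 0.12) was -0.014 with the recovered size factors and -0.018 without depletion replicate 1.

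The rest of the 60S group lay between these genes. Las1l, the nuclease that opens the second internal spacer, was at -0.18, and Rrs1, which brings in the 5S particle, at -0.12. Gnl3, also called nucleostemin, was at -0.09, and the PeBoW proteins Wdr12, Pes1 and Bop1 were at -0.07, -0.0065 and 0.04. Noc3l was at -0.07 and its relative Noc2l at 0.03. Ftsj3, Gtpbp4, Nip7 and Ebna1bp2 were all at -0.03 to -0.02, Mdn1, the large ATPase that strips factors from the particle, at 0.0023, Rpf2 and Nop16 at 0.02, and Rrp1 at 0.08. Mdn1 had one of the narrowest intervals, -0.09 to 0.10.

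Per kilobase of the annotated gene, the most strongly transcribed members in the controls were Nop56 (58.1 CPM per kb), Ncl (53.9), Npm1 (37.7), Nhp2 (25.3) and Nop10 (18.3), and the median member was at 4.12. These levels are approximate, since the authors counted over start sites corrected with CAGE data. Of these 5 genes Nop56 alone passed the test. The plot of fold change against level shows the members over most of the range of levels among the genes tested. Members ran from 1344 to 118099 bases, with a median of 14303 against 22209.5 for all genes, so the comparisons with all genes are not matched for length. The log2 fold change correlated with gene length at a Spearman rho of 0.18 over the 50 members and 0.27 over 11844 genes, which share the 4 libraries. With each library's trend on length removed, 32 members were below 0 and only Wdr75 passed the test. Then 31 members lay below the median of all genes, against 36 in the main fit.

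**Figure D4:**
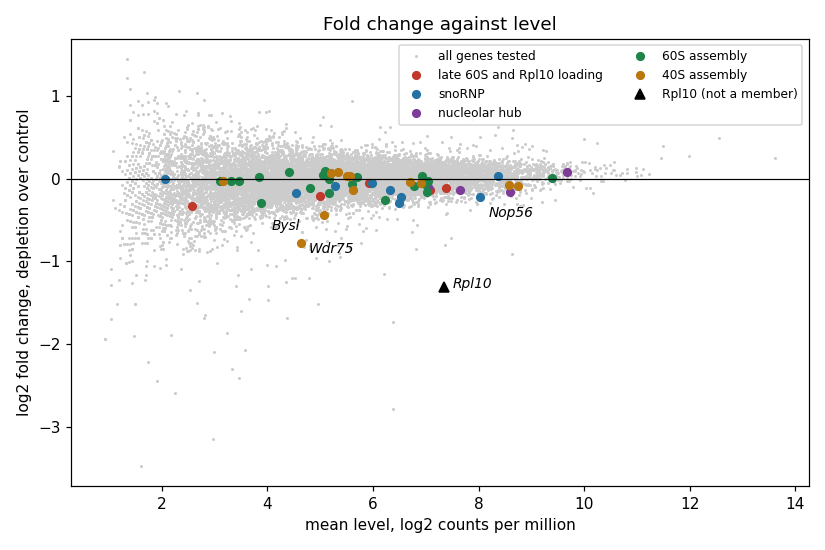
Log2 fold change of depletion over control (vertical axis, TMM scaling) against the mean level over the 4 libraries in log2 CPM (horizontal axis), for the 50 members coloured by role, all genes tested in grey and Rpl10 as a triangle. The members lie in a narrow band from -0.78 to 0.09, while Rpl10 lies at -1.30.

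Several assembly factor genes carry snoRNAs in their introns, and their counts include those introns. In 7 members snoRNAs were annotated on the same strand within the gene, and their position in introns was not checked. These were Nop56 with 5 annotated snoRNAs, Nop58 with 4, Ncl, Gnl3 and Wdr43 with 3 each, Tsr1 with 2 and Dkc1 with 1. Their median log2 fold change was -0.09, and that of the other 43 members -0.07. Of the 7, Nop56 passed the test, and 3 were above 0 (Nop58, Ncl and Tsr1), which all turned below 0 with the recovered size factors.

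RefSeq promoter windows were found for 41 of the 50 members. In the 250 bases before the start, both strands were searched for 7 short motifs known from mammalian promoters, and the shares were set beside those of 9295 tested genes with a window. The ETS site CCGGAAG was in 10 members (24.4% against 16.2%), and the YY1 site ATGGCGG in 5 (12.2% against 4.76%). The CCAAT box was in 11 (26.8% against 40.7%) and the E-box CACGTG, bound by Myc among others, in 3 (7.32% against 10.2%), which were Nmd3, Nop2 and Rpf2. The NRF1 site GCGCATGCG and the element CTCGCGAGA were in 1 member each (2.44%), against 3.63% and 1.59%, and CTACAATTC, the core of the element of THAP11 and ZNF143, was in 0 members and 0.785% of all windows. The genes that passed the test held no common motif among those searched, with YY1 and CCAAT letters in Wdr75, CCAAT letters in Nop56 and none in Bysl.

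Ribosome assembly genes outside the 50 members were listed from textbook knowledge, though with earlier results of these data known. Of 106 listed, 105 were in the table and tested. Of these, 4 fell (3.81%, against 1.4% of all genes) and none rose (1.11% of all genes) at an adjusted p under 0.05 in edgeR's quasi-likelihood test. At an unadjusted p under 0.05, 8 of the 105 were lower and 3 of the 105 higher, where all genes stood at 7.66% and 8.53%. At this threshold the share lower was about that of all genes. The number lower was 9 with the recovered size factors, 0 in DESeq2 with its own size factors, and 0 to 3 with 1 library left out. With the recovered size factors and in DESeq2, 5.89% and 0.515% of all genes were lower. In 70 of the 105 genes (66.7%) the log2 fold change was below 0, against 50.6% of all genes. The median was -0.06, close to that of the members. By role, the 14 other late 60S and Rpl10 loading genes had 7 below 0 and a median of -0.0017. The 5 late 60S members were all below 0, with a median of -0.14.

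Dusp12, whose yeast homologue Yvh1 releases the Mrto4 placeholder, was at 86.3 and 78.3 CPM in the controls and at 57.1 and 62.1 CPM after depletion, a log2 fold change of -0.46 (SE 0.09, adjusted p = 0.00298). Ruvbl2, an ATPase of the machinery that assembles snoRNPs and also of chromatin remodellers, was at 32.5 and 36.8 CPM against 19.2 and 22.4 CPM, a log2 fold change of -0.74 (SE 0.14, adjusted p = 0.00122). These were the clearest falls of the wider list, with groups well apart. Brix1, a pre-60S factor, was at 56.8 and 57.9 CPM against 40.5 and 45.2 CPM (log2 fold change -0.42, SE 0.10, adjusted p = 0.0236). Wdr18, of the complex that acts with Las1l and Mdn1, was at 118 and 114 CPM against 94.4 and 88.6 CPM (log2 fold change -0.34, SE 0.08, adjusted p = 0.0107). Without depletion replicate 1 all 4 lost the call, and Brix1 and Wdr18 also lost it without other libraries. With 1 library left out, the log2 fold change was -0.53 to -0.40 for Dusp12 and -0.86 to -0.63 for Ruvbl2. It was -0.50 to -0.34 for Brix1 and -0.38 to -0.30 for Wdr18. Brix1 also lost the call of edgeR's quasi-likelihood test with the length trend removed (adjusted p = 0.0575).

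The other genes that were lowest or highest of their role in the wider list did not pass the test. Utp11 was at 5.71 and 5.73 CPM in the controls and 5.21 and 2.67 CPM after depletion, and Rrp8 at 3.01 and 3.28 CPM against 1.85 and 1.602 CPM, with log2 fold changes of -0.52 (SE 0.33) and -0.85 (SE 0.43). Imp3 was at 3.61 and 5.46 CPM against 6.55 and 6.94 CPM, and Znhit3 at 4.81 and 6.82 CPM against 5.54 and 7.65 CPM, with log2 fold changes of 0.56 (SE 0.29) and 0.16 (SE 0.28). Each of these rested on fewer than 10 CPM, and the errors were large. Zfp593 was at 20.1 and 20.5 CPM against 26.9 and 23.3 CPM, a log2 fold change of 0.31 (SE 0.15, adjusted p = 0.303), and Mybbp1a, a nucleolar protein that binds p53 and Myb, at 41.8 CPM in each control against 45.0 and 49.5 CPM, a log2 fold change of 0.18 (SE 0.11, adjusted p = 0.455).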

How the data were processed

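PRO-seq was performed on AID-Zfp574 mESC in 2 libraries of untreated cells and 2 of cells treated with IAA, described by the authors as biological replicates. The authors separated the molecular identifiers, trimmed adapters with cutadapt 1.18, mapped reads to mm10 with Bowtie 1.2.2, kept uniquely placed reads, collapsed them by identifier and counted the last base of the nascent RNA by strand over transcripts whose starts were corrected with CAGE data. The deposited counts are whole numbers per gene and are not normalized. The authors also deposited a DESeq2 table with a mean normalized signal per gene, made by dividing the counts by size factors and averaging the libraries. The size factors were recovered from it (0.699 and 0.74 for control, 1.32 and 1.24 for depletion). The methods describe scaling on Drosophila spike-in reads with 1 factor per condition. Replicates of a condition have unequal factors here, so values under them are those of the deposited table's scaling and not a known spike-in scaling. The depth of the spike-in was not used here, and the fold changes and p-values in the table were not used.

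Counts were filtered with filterByExpr (minimum count 10, minimum total 15), scaled with TMM and tested with edgeR 4.0.16 in R 4.3.3 (glmQLFit, glmQLFTest, two-sided, condition only), with Benjamini-Hochberg adjustment over all genes tested. CPM was computed on library sizes multiplied by the TMM factors. SE values follow from the F statistic and 95% intervals from its t distribution. DESeq2 1.42.0 and limma 3.58.1 served as alternatives. Replicates differed by more than counting noise (chi-square per degree of freedom 1.90 in the controls and 1.51 after depletion) and were kept apart. Gene positions came from GENCODE M21, which lacks the corrected starts. Promoter windows came from RefSeq (GRCm38.p6).

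The members and lists were chosen with earlier results of these data known. Values per library are given for the 5 late 60S factors, members that passed the test, the lowest and highest of each role, the 5 members with the highest level per kb, and, among other pathway genes, those that passed the test or were lowest or highest of their role. The complexes and the snoRNA hosts were laid out after the values were seen.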

Additional observations from a re-analysis of the deposited data

How the results depend on the processing

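The 3 members that passed the test also did so with median-ratio scaling and without the count filter, and 0 members were higher under every alternative tried. The number of members lower was 5 with library totals, 10 with the recovered size factors, which moved the median of all genes to -0.11, 0 with DESeq2, 4 with limma-voom, the likelihood ratio test or a mean count of at least 100, where 41 members were tested, and 1 with the length trend removed. It was 0 to 2 when 1 library was left out: 1 without control replicate 1 (Wdr75), 2 without control replicate 2 (Nop56 and Wdr75), 0 without depletion replicate 1 and 1 without depletion replicate 2 (Wdr75). The number of other pathway genes lower was 9 with the recovered size factors, 0 with DESeq2, and 0 to 3 with 1 library left out, 0 without depletion replicate 1 and 2 without depletion replicate 2. Differences between replicates hardly correlated across the conditions (0.04), which does not settle whether libraries with equal replicate numbers were prepared together. With the replicate numbers as a block, 5 members were lower, Dkc1 and Npm1 in addition, and over all genes 300 were lower and 366 higher. Over all genes DESeq2 called 61 lower and 14 higher, and leaving out 1 library gave 75 to 226 lower and 21 to 271 higher. Of 372 values of 27 named genes, 325 kept their direction and their side of the threshold, 26 lost the call, 11 gained it and 10 changed sign. Sign changes with the recovered size factors were Tsr1 (-0.026), Gnl2 (-0.014), Ncl (-0.028) and Nop58 (-0.066). The others came with 1 library left out, where Eif6 ran from -0.74 to 0.20 (without control replicate 1), Sbds from -0.16 to 0.083 (without control replicate 2), Gnl2 from -0.018 (without depletion replicate 1) to 0.19, Nop58 from -0.0016 (without depletion replicate 2) to 0.076, and Znhit3 from -0.080 (without depletion replicate 2; -0.055 without control replicate 1) to 0.45. The causes were not tested, except that leaving out a library leaves fewer samples. With 2 libraries a condition, members with few counts had wide intervals, with an SE of up to 0.36.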
